A study of Arabidopsis thaliana with 10 samples.

Results

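Nuclear genes of thylakoid membrane complexes were examined for chromatin sites of LIMYB: PDE334 (AT4G32260), ATPC1 (AT4G04640), ATPD (AT4G09650), PETC (AT4G03280), PGR5 (AT2G05620), PGRL1A (AT4G22890) and PGRL1B (AT4G11960). They were chosen by locus among the nuclear genes for plastid ATP synthase subunits, the Rieske protein and the PGR5 and PGRL1 proteins, without ATPC2, a second gene for the gamma subunit, and every peak that the authors assigned to them was taken at any position. These are 7 of the 27444 nuclear protein-coding genes in the RefSeq table used for names. They received 4 of the 9604 nuclear peaks of line L1 and 5 of the 8952 nuclear peaks of line L4. The list of line L3 holds 12 peaks, none of them on a nuclear chromosome, so none belongs to these genes.

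Electron flow through the thylakoid membrane passes through the cytochrome b6f complex, whose Rieske iron-sulfur protein is encoded by PETC, and moves protons into the thylakoid lumen. The plastid ATP synthase lets these protons return and makes ATP; some of its subunits are encoded in the plastid and the others in the nucleus. PGR5 and PGRL1 act in a cyclic route that returns electrons from photosystem I to the plastoquinone pool and so adds to the proton gradient.

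The seedlings overexpressed LIMYB, a MYB-type nuclear protein in the antiviral pathway of the receptor kinase NIK1, as a fusion with YFP, and chromatin was precipitated with an antibody to GFP. All 10 samples carried this transgene, with 2 samples of line L1, 4 of L3 and 4 of L4. The labels number the replicates of each line 1 and 2. In L3 and L4 each replicate number appears with the suffixes 1 and 2, which the labels do not explain. All samples were seedlings of up to 12 days, with 1% sucrose recorded for each line. They were crosslinked with 1% formaldehyde in portions of 600 mg. The sources used here give neither the promoter of the transgene nor whether the lines are independent insertions, and no input or control precipitation is among the samples. Each line has one deposited peak list, so no value carries a replicate error, no test between lines was possible, and sequencing depth is unknown. The study asks whether LIMYB acts on genes of the photosynthetic apparatus.

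Peaks were assigned to 4 of the 7 genes, and these were the same genes in both lists: PDE334, ATPC1, ATPD and PGR5. No peak of either list was assigned to PETC, PGRL1A or PGRL1B. Among the 7, the 3 ATP synthase genes thus had a peak in both lines, whereas of the 4 electron transport genes PGR5 alone had one. The share of 4 of 7 (57.1%) held for L1, for L4 and for both, beside 25.7% of all nuclear genes in L1, 24.4% in L4 and 14.3% in both. With 7 genes chosen in view of earlier results, these shares are a description, and no test was made.

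The position of the peaks differed between the genes. Only PDE334 had a peak at its 5′ end in both lines, and the peaks common to both lines at ATPC1, ATPD and PGR5 lay past the 3′ end. A promoter peak, meaning an assigned peak that overlaps the region between 1000 bp before and 100 bp after the 5′ end, was present at 1 of the 7 genes in L1 (14.3%), where 8.67% of all nuclear genes had one. In L4 it was present at 2 of 7 (28.6%), PDE334 and PGR5, where the share of all genes was 8.04%. In both lines it was present at 1 of 7, where the share of all genes was 3.83%. A share that rests on 1 or 2 genes does not separate these genes from the rest.

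**Figure D1:**
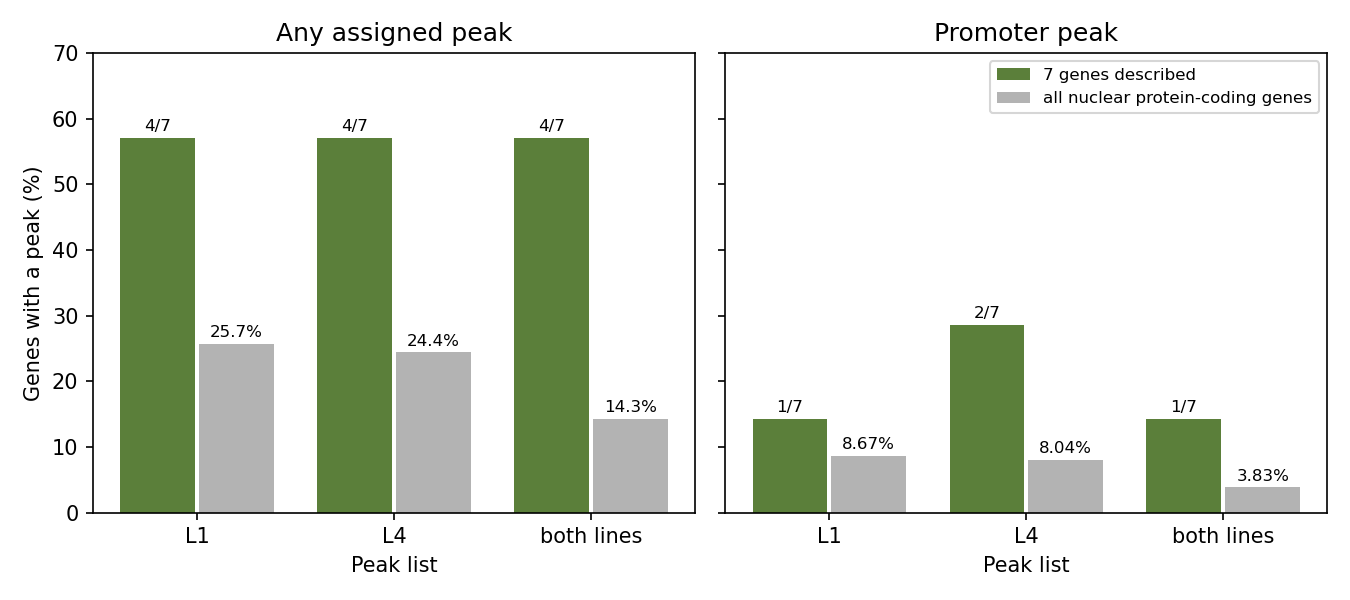
Share of genes with an assigned peak at any position (left) and with a promoter peak (right), in percent, for the 7 genes (green) and for all nuclear protein-coding genes (grey), in L1, in L4 and in both lines. The green bars stand at 4 of 7 genes for any peak in every set, and at 1, 2 and 1 of 7 genes for promoter peaks.

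PDE334, which encodes a subunit of the membrane-bound stalk of the plastid ATP synthase, carried in L4 the highest fold of the 9 peaks. The fold is the authors' enrichment of the summit signal over a background that the file headers do not define. The L1 peak covered chromosome 4, 15574499 to 15574773, with a pileup of 35 overlapping fragments at the summit, a fold of 14.23 and a −log10 q of 25.61. The L4 peak covered 15574478 to 15574836, with a pileup of 80, a fold of 34.78 and a −log10 q of 88.26. The whole L1 peak of 275 bp lay inside the L4 peak of 359 bp, and the summits were 9 bp apart. The gene lies on the minus strand from 15573636 to 15574737 in the files' annotation, so both peaks spanned its 5′ end, with summits 85 bp (L1) and 76 bp (L4) inside the gene.

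Ranked within its own list, the PDE334 peak stood in the upper part of L1 and near the top of L4. In L1 its fold exceeded that of 89.6% of nuclear peaks, and in L4 that of 99.7%, where it ranked 29 of 8952. Among the 498 nuclear L4 peaks that span the 5′ end of their gene it had the highest fold (rank 1), and among the 522 such peaks of L1 it ranked 59. These peaks had a median fold of 9.28 in L1 and 11.68 in L4. By pileup the L4 peak ranked 122 of 8952. Folds of the 2 lists are given side by side and not as a change, because it is not known whether the lists share a scale.

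**Figure D2:**
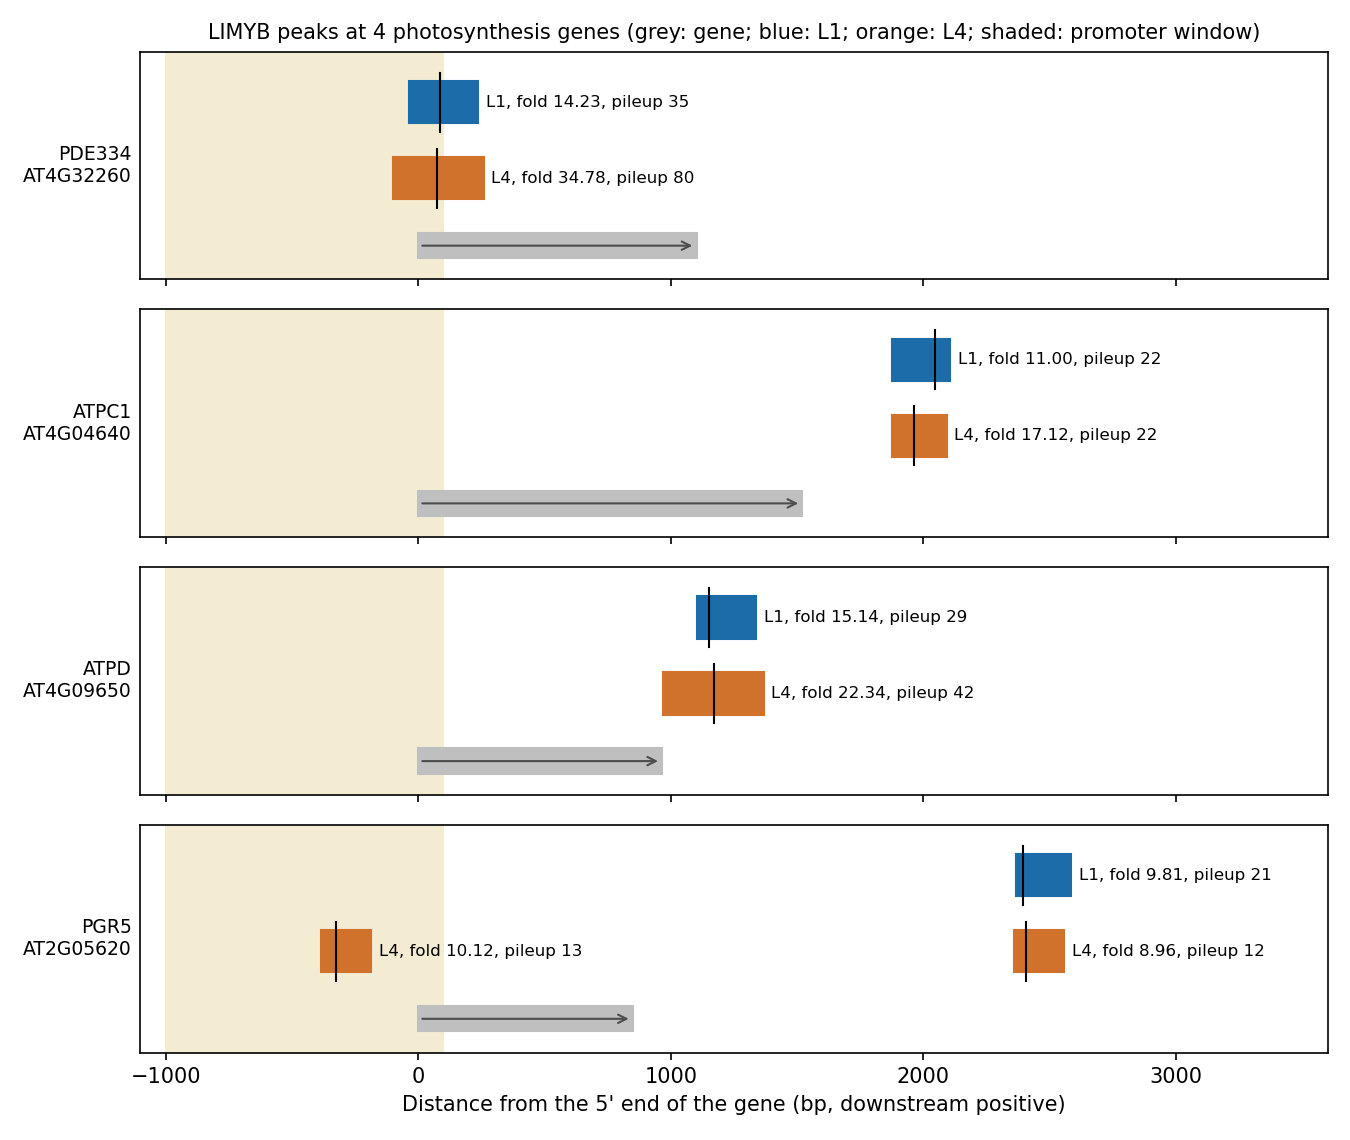
Assigned peaks of L1 (blue) and L4 (orange) at PDE334, ATPC1, ATPD and PGR5, drawn to scale by distance from the 5′ end of each gene in bp, with the gene in grey and its direction as an arrow, black ticks at the summits and the promoter window shaded. Both lists have a peak at the 5′ end of PDE334 and past the 3′ end of the other 3 genes, and the peak upstream of PGR5 is in L4 alone.

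The genes for subunits of the catalytic part of the ATP synthase, ATPC1 and ATPD, had their peaks beyond the 3′ end. ATPD encodes the delta subunit, which joins the catalytic head to the peripheral stalk. Its L1 peak covered chromosome 4, 6101845 to 6102081, with a pileup of 29, a fold of 15.14 and a −log10 q of 21.95. Its L4 peak covered 6101714 to 6102111, with a pileup of 42, a fold of 22.34 and a −log10 q of 38.57. The 237 bp of the L1 peak lay entirely within the 398 bp of the L4 peak, and the summits were 19 bp apart. The files place ATPD on the plus strand from 6100743 to 6101708, so the L1 peak began 137 bp and the L4 peak 6 bp after the 3′ end. The fold exceeded that of 91.6% of nuclear peaks in L1 and 93.5% in L4, and in L1 this was the highest fold among the 7 genes.

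ATPC1 encodes the gamma subunit, the rotating shaft of the enzyme and the site of its regulation by thioredoxin. The L1 peak covered chromosome 4, 2349911 to 2350141, with a pileup of 22, a fold of 11.0 and a −log10 q of 13.88. The L4 peak covered 2349926 to 2350143, with the same pileup of 22, a fold of 17.12 and a −log10 q of 17.88. The peaks shared 216 bp, but their summits were 83 bp apart, the widest separation among the 4 genes. ATPC1 lies on the minus strand from 2350498 to 2352018, and the nearer peak edges were 357 bp (L1) and 355 bp (L4) past its 3′ end. The fold exceeded that of 76.1% of nuclear peaks in L1 and 81.9% in L4.

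PGR5, the small protein needed for the antimycin-sensitive cyclic route, had the lowest folds of the 4 genes in each list and the only peak found in a single line. The downstream peak covered chromosome 2, 2079272 to 2079490, in L1, with a pileup of 21, a fold of 9.81 and a −log10 q of 12.3. In L4 it covered 2079300 to 2079499, with a pileup of 12, a fold of 8.96 and a −log10 q of 6.75. These peaks shared 191 bp with summits 11 bp apart, and lay 1519 bp (L1) and 1510 bp (L4) past the 3′ end of the gene, which runs on the minus strand from 2081009 to 2081858. They were thus the most distant from their gene among the peaks assigned to these 4 genes.

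The second L4 peak of PGR5 lay upstream, at 2082043 to 2082242, with a pileup of 13, a fold of 10.12 and a −log10 q of 7.89. Its summit was 324 bp before the 5′ end, and no L1 peak overlapped it. Both L4 peaks of PGR5 were low in their list: the folds exceeded those of 20.4% (downstream) and 31.6% (upstream) of nuclear L4 peaks, and the pileups of 12 and 13 compare with a list median of 17 and a lowest value of 7. The L1 downstream peak exceeded 64.3% of its list. Absence of the upstream peak from L1 means only that it was not called there, since the depth of either list is unknown.

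**Figure D3:**
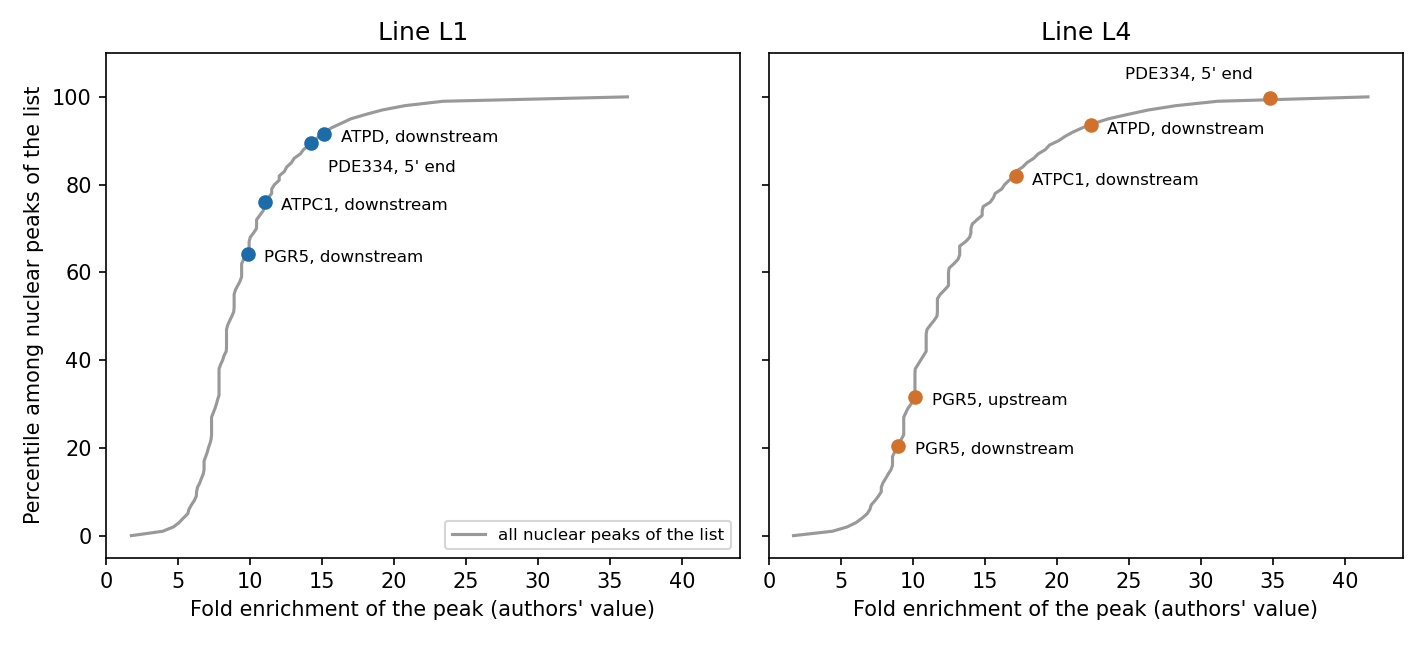
Fold enrichment (horizontal axis) and percentile of that fold among the nuclear peaks of the same list (vertical axis), for L1 (left) and L4 (right). Points are the peaks of the 4 genes and the grey curve holds all nuclear peaks; PDE334 is at 89.6 in L1 and 99.7 in L4, and the PGR5 peaks of L4 are at 20.4 and 31.6.

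As a group, the 4 L1 peaks had a median fold of 12.62 and a median pileup of 25.5, beside 8.72 and 19 over all nuclear L1 peaks. The 5 L4 peaks had a median fold of 17.12 and a median pileup of 22, beside 11.65 and 17. The L1 peaks of these genes all overlapped an L4 peak (4 of 4), as did 45.0% of the nuclear L1 list, and 4 of the 5 L4 peaks overlapped an L1 peak, as did 48.2% of the nuclear L4 list. For genes that have a peak in both lines such overlap was the usual case, at 85.9% of 3931 genes. Nuclear peaks that overlapped one of the other line had median folds of 9.92 in L1 and 12.45 in L4, so the peaks at PDE334, ATPD and ATPC1 were above this median too, and the downstream peak of PGR5 was below it in both lists.

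Peaks past the 3′ end made up 3 of 4 peaks in L1 and 3 of 5 in L4. Downstream peaks were 19.5% of the nuclear L1 list and 18.9% of the nuclear L4 list, and of the 4282 pairs of overlapping peaks that share an assigned gene 20.2% lay downstream in both lines. Downstream peaks were often far from their gene, at a median of 2068.5 bp for L1 and 1831 bp for L4, and 25.6% (L1) and 27.4% (L4) of them lay within 500 bp of it. The peaks of ATPD and ATPC1 were within this 500 bp in both lines, and those of PGR5 were not. The median fold of downstream peaks was 8.35 in L1 and 11.34 in L4, beside 8.72 and 11.65 over all nuclear peaks.

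Of the 9 peaks at these genes, 6 were farther from the nearest other peak of their list than the list median. The nearest other peak was 3089 bp (L1) and 12063 bp (L4) from that of PDE334, 8120 bp and 14192 bp from that of ATPD, and 17333 bp and 6312 bp from that of ATPC1. Over all nuclear peaks the median distance to the nearest other peak was 4473 bp for L1 and 4730 bp for L4. For the L1 peak of PGR5 it was 11059 bp, and in L4 the downstream and upstream PGR5 peaks were each other's nearest, 2543 bp apart.

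Neighbours were taken from the protein-coding genes in RefSeq order, and genes of other kinds were not looked at. Of the 8 genes adjacent to these 4, 3 had a peak in either list. Of all 27444 nuclear protein-coding genes, 9821 had one, and a count over 8 genes does not set the neighbours apart. Beside PDE334, AT4G32250 had no peak and AT4G32270 had a peak in L1 alone, with a fold of 5.93. AT4G09649 and AT4G09660, on either side of ATPD, had none. On the downstream side of ATPC1, AT4G04632 had a pair of L4 peaks, with folds of 16.07 and 9.34, and on the other side AT4G04650 had none. Beside PGR5, the autophagy gene ATG8D had no peak, and AT2G05600 had an L4 peak inside the gene with a fold of 10.9.

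For PETC, PGRL1A and PGRL1B the files give no gene position, because they name only genes with an assigned peak, and their surroundings are described by their neighbours. PETC is flanked by AT4G03290 and CYCD6;1, a D-type cyclin gene. AT4G03290 had a peak across its 3′ end in both lines. The L1 peak covered chromosome 4, 1443427 to 1443654, with a fold of 13.86, and the L4 peak 1443312 to 1443626, with 14.88. CYCD6;1 had an L4 peak upstream, with a fold of 19.46, and none in L1. The authors' assignment gave none of these peaks to PETC.

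No protein-coding gene adjacent to a PGRL1 gene had a peak in either list, where 9821 of all 27444 nuclear protein-coding genes had one. So few genes do not set these surroundings apart. The neighbours of PGRL1A are LDOX, a gene of anthocyanin synthesis, and AT4G22900. Those of PGRL1B are AT4G11950 and AT4G11970. PGRL1A and PGRL1B are close copies of one another, though their sequences were not compared here. The sources used here do not say how the authors treated reads that map to several places. Whether such reads bear on the absent peaks was not tested, so absence at either gene is uncertain.

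Other genes of the same functions were read from lists drawn up by locus. Among relatives of the 7 genes, ATPC2 had a peak across its 3′ end in L1 (fold 9.91, summit 7 bp past the end) and none in L4. Its peak is thus on the same side as those of ATPC1, in a single line. IM, the plastid terminal oxidase, which takes electrons from plastoquinone, had an L1 peak inside the gene (fold 8.88) and none in L4.

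Of 5 annotated assembly factors, 2 had a peak in L1, 3 in L4 and 2 in both, and 1 had a promoter peak in both. The shares of all nuclear genes given above (25.7%, 24.4% and 14.3%, and 3.83% for promoter peaks in both) correspond to about 1 gene or fewer of 5 in each set, and counts this small do not set the list apart. Of all 9 loci drawn up for assembly factors, 1 had a promoter peak in L1, 2 in L4 and 1 in both. The shares of all nuclear genes were 8.67%, 8.04% and 3.83%. The membrane part of the plastid ATP synthase, to which the PDE334 product belongs, needs CGL160 (AT2G31040) for its assembly. CGL160 is the gene with promoter peaks in both lines. Its L1 peak covered chromosome 2, 13210922 to 13211215, with a pileup of 49 and a fold of 17.01. Its L4 peak covered 13210906 to 13211198, with a pileup of 52 and a fold of 18.31. Both spanned the 5′ end, with the summit 21 bp upstream of it in L1 and 12 bp inside the gene in L4. The folds exceeded those of 95.0% of nuclear peaks in L1 and 85.9% in L4, so the order of CGL160 and PDE334 differed between the lists.

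Among factors for the cytochrome b6f complex, CCB3 had peaks in both lines 2395 bp (L1) and 2312 bp (L4) upstream, with folds of 8.35 and 10.71, outside the promoter window. CCB1 had an L4 peak across its 3′ end (fold 16.35). HCF208 and HCF164 had no peak, as was the case for PETC, whose product is part of that complex. Among the genes chosen at the outset PETC alone encodes a subunit of the complex, and its subunit genes as a set are not described. Loci of the lists without a telling name, AT2G26500 among them, are given under other observations.

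The plastid NDH complex provides the other cyclic route, and 17 nuclear genes for its subunits were read. A peak at any position was assigned to 4 of them in L1 (23.5%), 6 in L4 (35.3%) and 3 in both (17.6%), beside 25.7%, 24.4% and 14.3% of all nuclear genes. A promoter peak was present at 4 in L1 (23.5%), 5 in L4 (29.4%) and 3 in both (17.6%), beside 8.67%, 8.04% and 3.83% of all nuclear genes, and no test was made. With a −log10 q of at least 10, the count in both lines was 1 in place of 3, and the share of all nuclear genes was 1.92% in place of 3.83%. At NdhT the fold was 11.49 (L1) and 13.08 (L4), and the summit lay 909 bp (L1) and 941 bp (L4) upstream. PnsL4 encodes an immunophilin subunit, and its fold was 6.79 in L1 and 11.68 in L4 with the summit 43 and 22 bp upstream. PnsL5 (AT5G13120) encodes a cyclophilin subunit, and its fold was 10.31 in L1 and 11.68 in L4 with the summit 115 and 112 bp upstream. At each of these 3 genes the L1 peak overlapped the L4 peak. NdhO had a promoter peak in L1 alone (7.72), and PnsB5 (12.45) and PnsL1 (15.22) had one in L4 alone. PnsB4 had an L4 peak inside the gene (7.43).

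Peaks upstream of the gene or across its 5′ end were 4 of 4 at NDH genes in L1 and 5 of 6 in L4. At the 7 genes above they were 1 of 4 in L1 (PDE334) and 2 of 5 in L4 (PDE334 and the upstream peak of PGR5). The share over all nuclear peaks was 47.8% for L1 and 46.1% for L4, and the difference between the lists of genes was not tested. No NDH gene had a fold above those of PDE334 or ATPD in the same list. Of 3 genes that the RefSeq table names as mitochondrial ATP synthase subunits, ATP3, ATP5 and ATPQ, 0 had a peak in either list. Of all 12 loci drawn up for that enzyme, 3 had a peak in L1 (25.0%), 2 in L4 (16.7%) and 1 in both (8.33%), beside 25.7%, 24.4% and 14.3% of all nuclear genes.

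**Figure D4:**
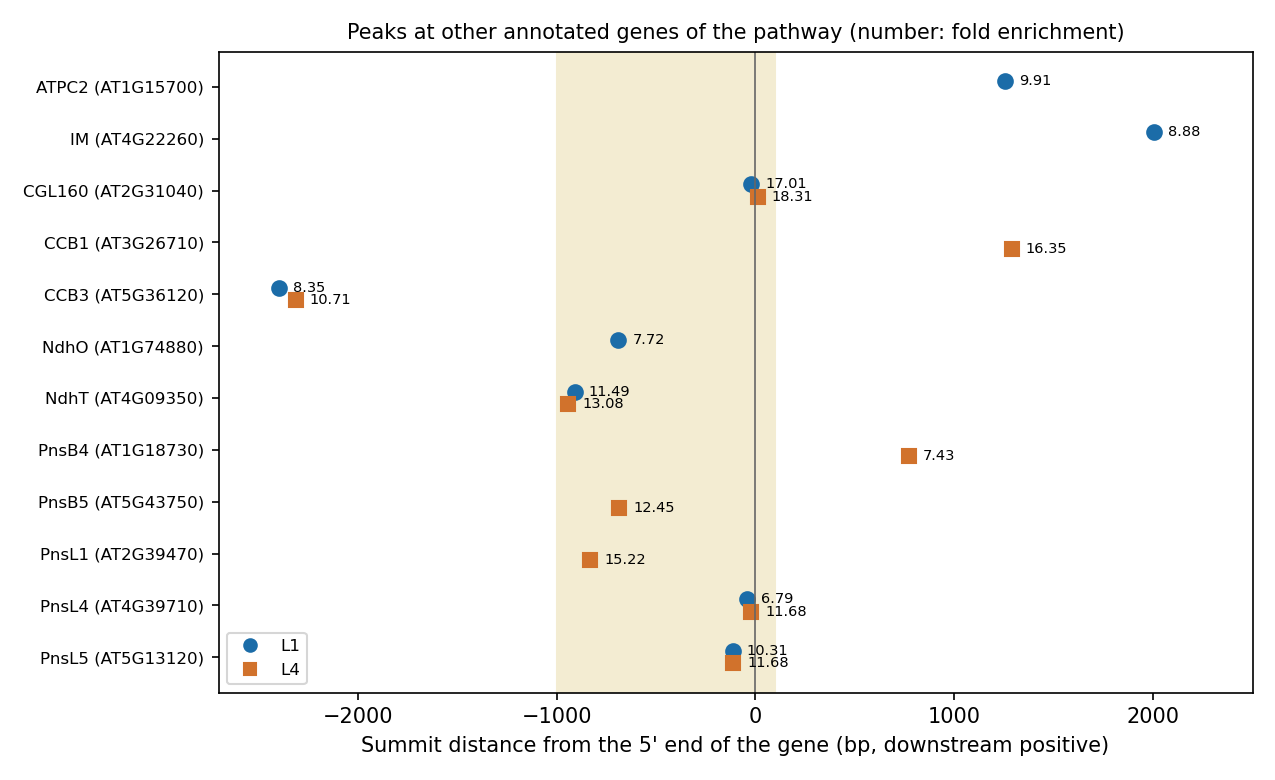
Summit positions of peaks in L1 (blue circles) and L4 (orange squares) at annotated genes of related function that had a peak, by distance from the 5′ end of the gene in bp; numbers are the authors' fold enrichments and the promoter window is shaded. CGL160, NdhT, PnsL4 and PnsL5 have summits inside the window in both lines.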

How the data were processed

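The 10 samples were grouped by the line named in their labels. Each line has one annotated peak list, without columns for single samples. Peak calling used MACS2, per the submitters' processing notes. Its version, settings and control, the aligner, the genome build and any pooling of replicates are details not given in the sources used here. As deposited, the pileup is a signal in overlapping fragments at the summit, the deposited fold enrichment is a ratio to a background that is not defined, and the deposited q-value is given as its −log10, per the file headers. Peaks were assigned to genes by nearest location, per the file headers, and positions are those of the files, counted from 1.

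A peak listed for several genes was counted once. Distances run from the summit to the 5′ or 3′ end of the assigned gene, and gaps run from the nearer peak edge. A percentile is the share of nuclear peaks of the same list with a lower value. Overlap means at least 1 bp. Names were looked up in RefSeq (assembly TAIR10.1), which held all 7 genes and 9821 of 10010 assigned nuclear identifiers; it served for names and gene order, and no coordinates were printed from it. No genome sequence was used. The 12 plastid loci of the lists are not reported, because it does not pair them with names.

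The 7 genes and the lists were chosen with earlier results of these data known. All 7 genes are named with all their peaks. From each list, every gene with a promoter peak in either line is named, then up to 5 with a peak in both lines; further list genes were named after their values were seen. Window and overlap counts were checked on simulated peaks. Python 3.11.15, numpy 2.4.6, pandas 2.3.3 and matplotlib 3.10.9 were used.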

Additional observations from a re-analysis of the deposited data

How the results depend on the processing

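Of 24 comparisons of a count over the 7 genes with its value under an alternative, 18 stayed within 1.5 times. With any assigned peak in place of a promoter peak the counts were 4 of 7 in L1, 4 in L4 and 4 in both. The shares of all nuclear genes were then 25.7%, 24.4% and 14.3%. The L4 count of 2 fell to 1 when the peak had to overlap the gene body, in the upper 50% of nuclear peaks by fold, and with a −log10 q of at least 10, since the upstream peak of PGR5 was then left out. The L4 share of all nuclear genes, 8.04% for the main window, was 12.5%, 4.26% and 4.57% under these settings, in that order. Windows of 2000 bp upstream to 200 bp downstream or 500 bp upstream to 100 bp downstream, and counting summits alone, left the counts at 1 in L1, 2 in L4 and 1 in both. For all nuclear genes the shares in L1, L4 and both were 11.4%, 10.4% and 5.11% with the wider window. They were 6.29%, 5.98% and 2.74% with the shorter window, and 7.74%, 7.09% and 3.37% by summits. Of the 4 overlapping peak pairs, 4 also met an overlap of 50% of the shorter peak and summits within 100 bp, and 3 were left in the upper 50% by fold. For nuclear L1 peaks the shares were 44.2%, 41.1% and 40.1%, in that order. The same alternatives were applied to the other lists after seeing the data, where 23 of 28 counts stayed within 1.5 times. With a −log10 q of at least 10, the count of NDH genes with a promoter peak in both lines was 1 in place of 3. The share of all nuclear genes was then 1.92% in place of 3.83%. No paired analysis was possible because the lists hold no values of single samples, and leaving out a replicate was not possible either. Motif and protein comparisons were not run, as no sequence was used. Folds and positions rest on the authors' peak calling and gene models. No control precipitation is among the samples, and whether the peak calling used one is not known.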

Other observations

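Several loci of the lists have no name in the RefSeq table that says what they encode, and are given here as loci. With them included, 3 of 9 loci drawn up for assembly factors had a peak in L1 (33.3%), 4 in L4 (44.4%) and 2 in both (22.2%), beside 25.7%, 24.4% and 14.3% of all nuclear genes. AT2G26500, from the same list of related loci as ATPC2 and IM, had a downstream peak in both lines. Its fold was 7.83 (L1) and 14.79 (L4), and the peaks overlapped. AT5G08670 had a peak across its 3′ end in both lines, with folds of 14.62 and 15.49. Close copies lie beside it, and whether it shares reads with them was not tested. Of the assembly factor loci, AT2G21385 had a promoter peak in L4 alone (12.45) and AT3G29185 a downstream peak in L1 alone (8.35). AT4G26210, a locus of the mitochondrial ATP synthase list, had a promoter peak in L1 alone (7.58).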
